A study of Mus musculus with 31 samples.

Results

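The change in exon usage in homozygous Q150 knock-in mice was set against the change in homozygous Q175 knock-in mice, event by event, in the cortex. Members were the 1731 splicing events (1429 genes) listed in the count files of both lines, out of 1922 events listed in any file of the series, and the value of each was the difference of the changes, (Q150 HOMO minus its WT) minus (Q175 HOMO minus its WT), of the log2 ratio of short to long counts. The 17 mice compared, of 31 in the series, were 4 Q150 HOMO and 5 WT mice of the Q150 set and 3 Q175 HOMO and 5 WT mice of the Q175 set. HOMO mice carry 150 or 175 glutamines on both alleles of their own huntingtin gene, which stays under its own promoter, and WT mice carry 7 on both. The 4 HET mice of each line, with a mutant and a WT allele, entered the fit as further groups. Both lines are knock-in strains of the Jackson Laboratory on a C57BL background. Mice were untreated and, per the methods of the study, 7 (Q150) and 18 (Q175) months old, although the reporting summary of the study gives ages of some weeks. Line, repeat length, age and file set therefore changed together and cannot be told apart.

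Both lines are models of Huntington's disease (HD), an inherited brain disorder in which the glutamine stretch of huntingtin is too long. Most genes of the brain are spliced in more than a single way, and a cassette exon is either kept or left out of the mature RNA under the control of RNA-binding proteins, many of which are themselves regulated through exons whose omission shifts the reading frame. In RASL-seq, pairs of DNA probes anneal on either side of a known exon junction and are ligated and counted. Short counts read the junction that skips the exon and long counts a junction of the included exon. Exclusion is the percentage of an event's counts that are short, so a positive log2 change means that the exon was left out more often.

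Events of types with no skipped exon made up a small part of the list, with 1668 cassette exons, 30 alternative 3′ sites, 19 alternative 5′ sites and 14 mutually exclusive pairs. Total counts ran from 2970207 to 5256516 over the 17 mice, and the smallest count of a shared junction was 4. No molecular identifiers were stated, so errors between mice, not counts, carry the comparison, and each mouse gave 1 library. In bulk cortex, fewer cells of a type and less RNA per cell cannot be told apart. Mouse numbers fell into a low and a high series in each set. The Q150 groups had mice in both series, whereas all 3 Q175 HOMO mice came from the high series and 3 of the 5 WT mice of that set from the low series. No huntingtin event was listed, so genotype was not checked from the counts. Markers of other cells were thinly covered. Oligodendrocytes had 4 of 10 markers with an event (Mag, Mbp, Mobp and Bin1), at summed counts (CPM, scaled to the total of the mouse) of 8906 to 14630 in Q150 WT, 9020 to 15730 in Q150 HOMO, 9967 to 12110 in Q175 WT and 7668 to 12530 in Q175 HOMO mice. Cortical neurons had 4 of 10 (Camk2b, Gria2, Grin1 and Syt1), at 36060 to 43540, 31670 to 36140, 32860 to 41330 and 34380 to 39700 in the same order. Endothelial cells had 1 of 5 (Pecam1), at 42.7 to 98.6, 53.1 to 140, 107 to 121 and 89.8 to 120, and astrocytes (0 of 8), microglia (0 of 8) and striatal neurons (0 of 6) had none. The part of cell composition in the results was not tested.

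The exons on which the comparison turns are shown here because they say which piece of each RNA was left out. The first 6 belong to events whose call held when any of the 17 mice was left out, and the others are alternative exons of Ptbp2, Gsk3b, App and Hnrpdl that also passed the threshold. Exons are in capitals, with 15 intron bases before and 10 after in lower case, 5′ to 3′ on the strand of the gene, from the GRCm38 genome. They were found by gene and by the exact length between the flanking exons, since most positions in the files did not fall on the named genes of that build (234 of 1687 did).
Nbr1, chr11:101577932-101578037, plus strand: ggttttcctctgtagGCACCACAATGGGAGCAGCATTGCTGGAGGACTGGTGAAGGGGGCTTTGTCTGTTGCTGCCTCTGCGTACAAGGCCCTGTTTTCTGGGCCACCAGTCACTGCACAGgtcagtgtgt
Ttc3, chr16:94409684-94409729, plus strand: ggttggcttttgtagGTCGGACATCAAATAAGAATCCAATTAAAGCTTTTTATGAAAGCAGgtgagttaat
Ylpm1, chr12:85060263-85060314, plus strand: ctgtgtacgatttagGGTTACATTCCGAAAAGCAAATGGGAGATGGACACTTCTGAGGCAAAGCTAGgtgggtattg
Aplp2, chr9:31156190-31156225, minus strand: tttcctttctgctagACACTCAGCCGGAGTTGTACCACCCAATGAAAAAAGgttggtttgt
G3bp2, chr5:92063337-92063435, minus strand: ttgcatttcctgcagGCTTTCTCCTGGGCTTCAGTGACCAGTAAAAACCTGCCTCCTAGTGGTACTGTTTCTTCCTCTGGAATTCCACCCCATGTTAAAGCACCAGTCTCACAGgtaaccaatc
Acss2, chr2:155551190-155551228, plus strand: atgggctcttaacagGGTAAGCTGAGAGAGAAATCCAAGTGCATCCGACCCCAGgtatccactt
Ptbp2, chr3:119724612-119724645, minus strand: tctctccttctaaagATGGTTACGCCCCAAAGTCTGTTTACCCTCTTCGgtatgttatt
Gsk3b, chr16:38217113-38217151, plus strand: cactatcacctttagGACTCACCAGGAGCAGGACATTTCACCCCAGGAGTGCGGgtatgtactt
App, chr16:85043576-85043743, minus strand: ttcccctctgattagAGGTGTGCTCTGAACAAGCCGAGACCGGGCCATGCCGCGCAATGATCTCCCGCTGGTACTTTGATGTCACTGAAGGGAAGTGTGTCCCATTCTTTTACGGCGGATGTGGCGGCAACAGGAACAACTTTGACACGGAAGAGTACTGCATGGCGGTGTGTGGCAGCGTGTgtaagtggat
Hnrpdl, chr5:100036481-100036651, minus strand: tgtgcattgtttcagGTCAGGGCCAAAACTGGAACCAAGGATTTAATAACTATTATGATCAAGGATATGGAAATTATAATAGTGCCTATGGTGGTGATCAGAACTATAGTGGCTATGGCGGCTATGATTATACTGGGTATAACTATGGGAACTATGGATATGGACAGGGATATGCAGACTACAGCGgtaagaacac
The Aplp2 (36 bases), Acss2 (39), Gsk3b (39), G3bp2 (99), App (168) and Hnrpdl (171) exons keep the reading frame when left out. The Ptbp2 (34), Ttc3 (46), Ylpm1 (52) and Nbr1 (106) exons do not, and all 10 lie in coding sequence of annotated transcripts.

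Mean exclusion over the 1731 events changed more in Q150 than in Q175 homozygotes. In the 5 Q150 WT mice it lay from 44.7% to 45.2%, against 47.0%, 47.2%, 46.3% and 46.2% in Q150 HOMO mice. In Q175 WT mice it was 45.1%, 45.1%, 45.8%, 45.1% and 45.1%, against 45.9%, 45.7% and 46.1% in Q175 HOMO mice. The Q150 groups did not overlap and every Q150 HOMO mouse lay above every Q175 HOMO mouse, whereas Q175 WT replicate 8 lay within the range of the Q175 HOMO mice. Group means were 44.9% ± 0.196 (SD, n = 5) and 46.7% ± 0.476 (SD, n = 4) in Q150 and 45.2% ± 0.293 (SD, n = 5) and 45.9% ± 0.195 (SD, n = 3) in Q175, a change of 1.83 and 0.661 percentage points. The difference of 1.17 points passed a two-sided exact permutation test of the line within WT and within HOMO mice (p of 0.00261 over 8820 arrangements, the smallest possible being 0.000113). That test also takes the WT mice of both sets as alike. With the Q150 mice of the low or of the high series alone against Q175 mice of the high series, the difference was 1.42 and 0.665 points (exact permutation p of 0.03 and 0.0333). Those tests had only 100 and 60 arrangements, so their p-values are coarse and cannot be small. Q150 HET mice had a mean of 45.8% ± 0.142 (SD, n = 4), and that of Q175 HET mice was 45.5% ± 0.386 (SD, n = 4).

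**Figure D1:**
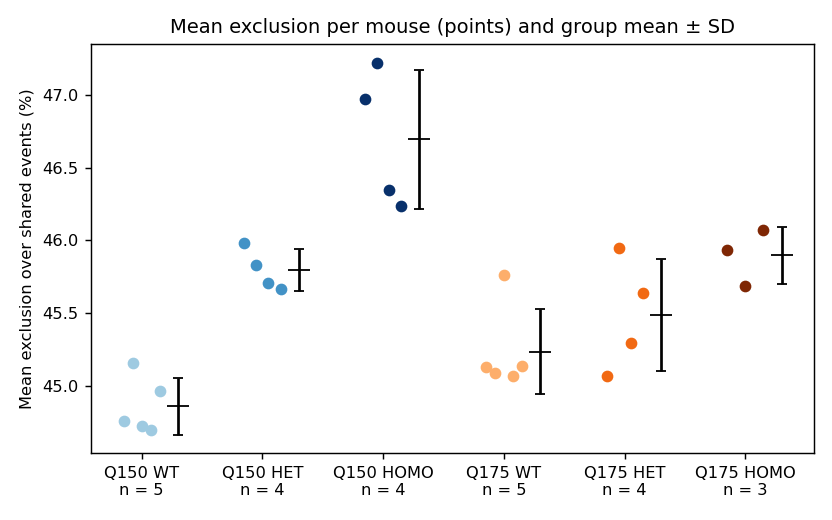
Mean exclusion over the 1731 shared events, in percent, for each mouse (points) of the 6 knock-in groups, with the group mean ± SD beside them. The vertical axis does not start at 0. The 4 Q150 HOMO mice lie from 46.2% to 47.2%, above the 3 Q175 HOMO mice at 45.7% to 46.1%.

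Event by event, the changes differed between the lines at 59 of 1731 events (limma adjusted p under 0.05; 3.41% of events tested) in 58 genes. The change was higher in Q150 at 46 events (2.66%) and lower at 13 (0.751%). The split between directions moved with the centring of the mice. The median difference over all events was 0.12 on the log2 scale, and once each mouse was centred on its median event 33 events passed, 15 higher and 18 lower in Q150. In their own comparisons with WT, 494 events passed in Q150 HOMO mice (28.5%; 400 higher, 94 lower) and 75 in Q175 HOMO mice (4.33%; 65 higher, 10 lower). The median change over all events was 0.19 in Q150 and 0.07 in Q175. The lines had unequal numbers of mice, and median standard errors were 0.20 in Q150 and 0.22 in Q175 for the change and 0.30 for its difference. HOMO and WT mice did not overlap at 317 events in Q150 (18.3%) and 243 in Q175 (14.0%). Chance alone separates 3 mice from 5 more often than 4 from 5, so these shares do not compare directly.

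**Figure D2:**
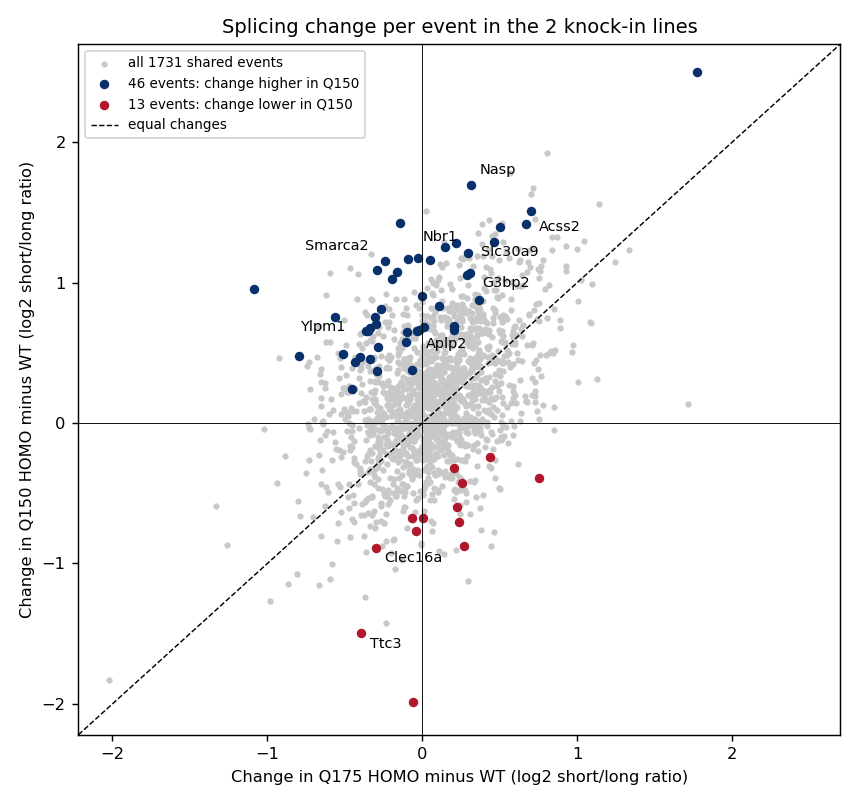
Change in the log2 short-to-long ratio of each of 1731 events in Q175 (horizontal) and Q150 (vertical) homozygotes against their own WT mice, with 46 events past the threshold above the line of equal change in blue and 13 below it in red. Named points are 10 of the 11 events whose call held without any 1 mouse; the farthest blue point at the upper right is Hnrpdl.

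The lines moved many events the same way to unequal extents. Of the 494 events that passed in Q150, 386 had a Q175 change of the same sign, with a median absolute Q150 change of 0.71 and a median Q175 change in that direction of 0.23. Of the 75 that passed in Q175, 71 had a Q150 change of the same sign, and the medians were 0.69 in Q175 and 0.74 in Q150. Events chosen in a line are likely to look larger there than in the other. Passing in both were 60 events, 0 of them in opposite directions, and 42 changed more in Q150. Over all 1731 events the changes of the 2 lines had a Pearson r of 0.42, a description across events that share probes and mice. Among the 59 events, 50 had passed in Q150 alone, 5 in both lines, 1 (Chka) in Q175 alone and 3 in neither, against 434, 60, 15 and 1222 of all 1731 events. These changes are the parts of the difference that chose the events, so the counts are a description. The absolute change was the larger in Q150 at 53 of them, and the 2 changes had opposite signs at 37.

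Single mice weighed heavily on the count. It ran from 12 without Q175 HOMO replicate 1 to 82 without Q150 HOMO replicate 4. Leaving out other mice also moved it by over 1.5 times, to 23 and 38 without Q175 HOMO replicates 2 and 3, 27, 38 and 28 without Q175 WT replicates 6, 8 and 9, 34 without either Q150 WT replicate 1 or 3, and 38, 35 and 35 without Q150 HOMO replicates 1, 2 and 3. Of the 59 events, 11 held without each of the 17 mice in turn and 48 were lost at least once. With mice centred 28 of the 59 kept their call, without the variance trend 20, with the series term 39 and with all 10 WT mice as a single group 35. In that last setting the WT mice cancel, and the value is the plain difference between Q150 and Q175 HOMO mice. Values given below for a single WT group have that meaning. The 11 events also held after centring, without the variance trend and with the mouse-number series as a term. With the 2 Q175 WT mice of the high series as the sole controls of the Q175 HOMO mice, an alternative added after the data were seen, 4 of the 59 held, with Clec16a, Nbr1 and Ttc3 among them and with all 59 differences keeping their sign. Of the 11 events, Acss2 (0.68), Aplp2 (0.75), G3bp2 (0.68), Nasp (1.14), Slc30a9 (0.73), Smarca2 (1.44) and Ylpm1 (0.98) lost their call there, at the differences in brackets.

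**Figure D3:**
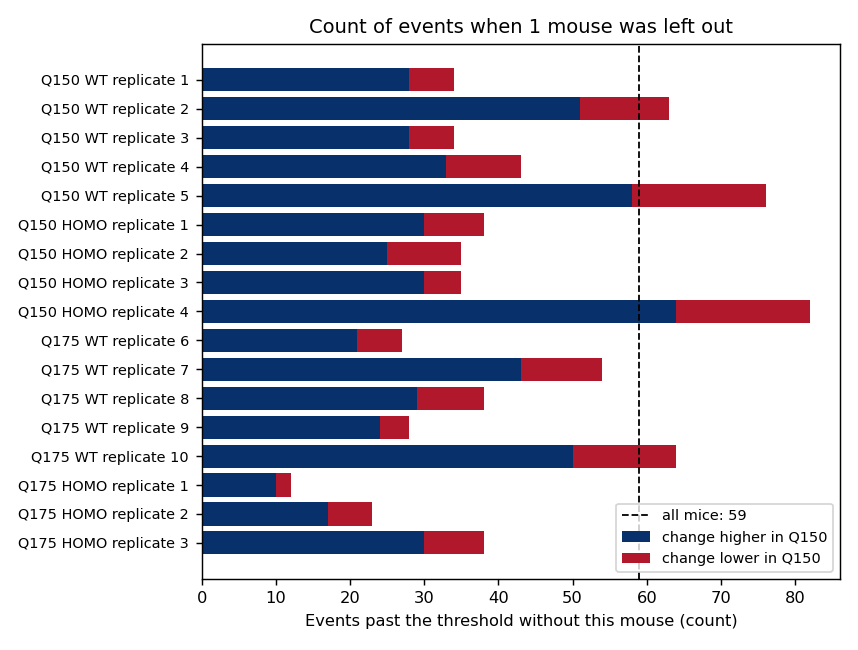
Number of events past the threshold (limma adjusted p under 0.05) when the mouse named on the left was left out, split by direction, with the count in all mice (59) as a dashed line. Counts run from 12 without Q175 HOMO replicate 1 to 82 without Q150 HOMO replicate 4.

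The 11 events that held without each mouse had mean counts of 1130 to 11340 per mouse. They were singled out by that criterion after their values were seen, and 4 of them (Smarca2, Nasp, Acss2 and Clec16a) are also among the events named by rule. In each, the Q150 HOMO mice did not overlap with Q150 WT mice (317 of all 1731 events, 18.3%) and the homozygotes of the lines passed a test against each other (176 of all 1731). Both values enter the difference by which the events were chosen and are given as a description.

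Nbr1 and Ttc3, which take part in protein degradation, had the smallest adjusted p. Nbr1 encodes an autophagy receptor. Its 106-base exon was excluded at 2.05%, 2.30%, 2.35%, 2.22% and 1.74% in Q150 WT and 5.60%, 5.59%, 4.09% and 3.60% in Q150 HOMO mice. In the Q175 set exclusion was 2.17%, 1.84%, 2.53%, 2.21% and 2.33% in WT and 2.19%, 2.32% and 2.33% in HOMO mice, all within the range of their controls. The change was 1.16 ± 0.13 (SE) in Q150 and 0.05 ± 0.15 in Q175, a difference of 1.12 ± 0.20 (limma adjusted p of 0.00216). Ttc3, a ubiquitin ligase, went the other way, with more of its 46-base exon kept. Exclusion was 8.69%, 10.6%, 10.2%, 9.17% and 9.70% in Q150 WT and 2.98%, 3.26%, 3.65% and 4.91% in Q150 HOMO mice. In Q175 it was 6.95%, 8.99%, 10.1%, 7.82% and 8.13% in WT and 6.16%, 7.10% and 6.15% in HOMO mice, which overlapped. The difference of the changes was -1.10 ± 0.20 (limma adjusted p of 0.00216).

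Smarca2 and Nasp act on chromatin. Smarca2 encodes a catalytic subunit of the BAF remodelling complex. Its event was excluded at 2.21%, 3.43%, 2.70%, 3.28% and 4.69% in Q150 WT and 7.59%, 7.10%, 6.79% and 5.93% in Q150 HOMO mice. The Q175 values were 4.47%, 3.93%, 4.31%, 5.92% and 3.32% in WT and 3.35%, 3.89% and 3.79% in HOMO mice. The Q150 groups stood apart and the Q175 groups overlapped, with a difference of 1.40 ± 0.31 (limma adjusted p of 0.0081). Nasp encodes a histone chaperone, and its long form carries a 975-base exon. That exon was excluded at 85.7%, 81.8%, 85.3%, 87.6% and 87.6% in Q150 WT and 95.6%, 95.4%, 95.4% and 94.1% in Q150 HOMO mice. In Q175 it was 90.1%, 88.4%, 88.2%, 87.1% and 84.5% in WT and 91.2%, 89.5% and 89.0% in HOMO mice. The long junction of Nasp accounted for most of it, falling by 1.54 on the log2 CPM scale in Q150 against 0.33 in Q175, while the short junction moved by 0.16 and -0.02. The difference of the changes was 1.38 ± 0.26 (limma adjusted p of 0.00257).

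Aplp2 and Slc30a9 encode membrane proteins. Aplp2, a relative of the amyloid precursor protein, had its 36-base exon excluded at 6.52% ± 0.631 (SD, n = 5) in Q150 WT and 9.95% ± 1.33 (SD, n = 4) in Q150 HOMO mice, whereas Q175 gave 6.31% ± 0.533 (SD, n = 5) and 6.21% ± 0.35 (SD, n = 3). Slc30a9, a zinc transporter, went from 5.98% ± 1.03 (SD, n = 5) to 12.8% ± 1.46 (SD, n = 4) in Q150 and from 6.07% ± 0.641 (SD, n = 5) to 7.33% ± 0.354 (SD, n = 3) in Q175. No Q175 HOMO mouse overlapped with the WT mice of that set, but the Q175 change did not pass (0.30, limma adjusted p of 0.258). The differences of the changes were 0.68 ± 0.15 in Aplp2 and 0.91 ± 0.18 in Slc30a9 (limma adjusted p of 0.00834 and 0.00476).

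Acss2, G3bp2, Ylpm1 and Clec16a also held without each mouse. Acss2 makes acetyl-CoA from acetate outside mitochondria, and its 39-base exon was excluded more in both lines. Its mean went from 83.5% ± 1.77 (SD, n = 5) in Q150 WT to 93.1% ± 0.633 (SD, n = 4) in Q150 HOMO mice, compared with 77.3% ± 0.824 (SD, n = 5) and 84.4% ± 1.04 (SD, n = 3) in Q175, and the WT mice of the sets already differed (0.58 on the log2 scale, limma adjusted p of 0.000519). G3bp2 encodes an RNA-binding protein of stress granules. Its 99-base exon went from 66.9% ± 3.59 (SD, n = 5) to 81.0% ± 1.57 (SD, n = 4) in Q150 and from 64.5% ± 1.73 (SD, n = 5) to 69.1% ± 2.25 (SD, n = 3) in Q175. The nuclear protein gene Ylpm1 went from 3.03% ± 0.423 (SD, n = 5) to 4.70% ± 0.686 (SD, n = 4) in Q150 and from 4.13% ± 0.753 (SD, n = 5) to 3.22% ± 0.41 (SD, n = 3) in Q175. The Ylpm1 call was lost with all 10 WT mice as a single group. Clec16a, which acts in mitophagy, had an alternative 5′ site whose short form made up 66.1% ± 0.883 (SD, n = 5) in Q150 WT, 51.4% ± 3.03 (SD, n = 4) in Q150 HOMO, 73.0% ± 0.854 (SD, n = 5) in Q175 WT and 68.7% ± 0.663 (SD, n = 3) in Q175 HOMO mice. It fell in both lines, by 0.89 and 0.30 on the log2 scale, and the WT mice differed here too (-0.47, limma adjusted p of 0.000312). With all WT mice as a single group, where HOMO mice alone are compared, the values of Acss2 and Clec16a were 1.33 and -1.05.

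**Figure D4:**
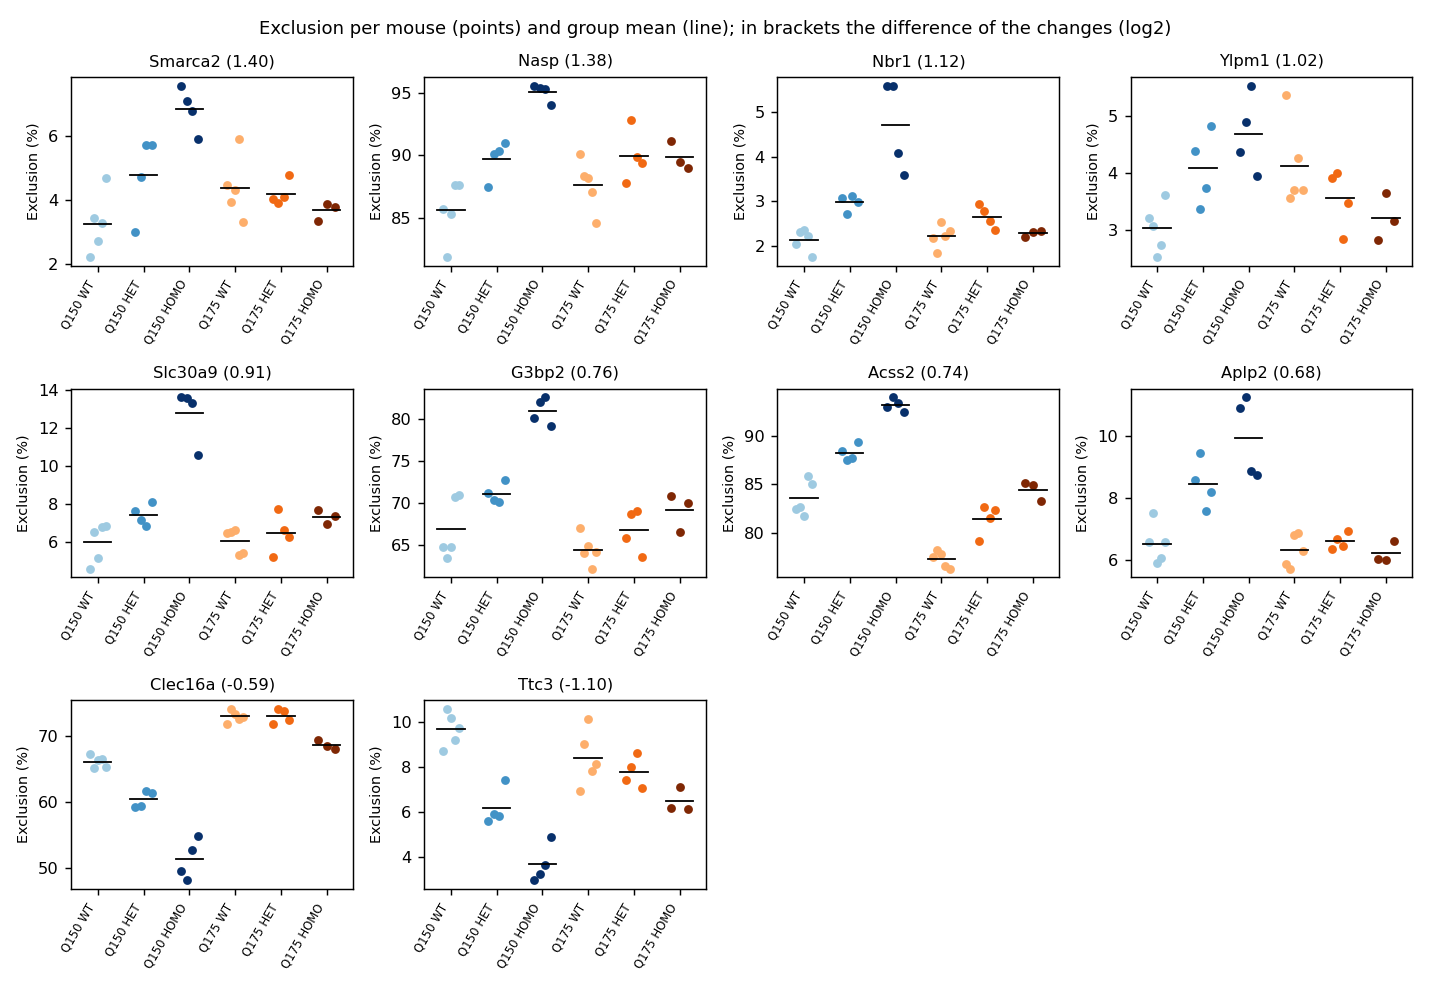
Exclusion in percent (vertical axes, which differ between panels and need not start at 0) in each mouse of the 6 knock-in groups for 10 of the 11 events that held without each mouse, with group means as lines; the number after each gene is the difference of the changes on the log2 scale. For Clec16a the axis is the share of the short form. In 8 panels the Q150 HOMO mice lie above their WT mice, and in Clec16a and Ttc3 below.

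Among the 90 events of 73 genes of splicing factors and RNA-binding proteins, 7 differed between the lines (7.78%, against 3.41% of all events) and all 7 were higher in Q150. With mice centred, and likewise without the variance trend, Ptbp2 alone of the 7 kept its call. The median difference of the list was 0.12, as over all events (0.12), and 34 of the 90 passed in Q150 (28.5% of all events did) and 8 in Q175 (4.33% of all). Ptbp2, the neuronal polypyrimidine tract-binding protein, has a 34-base exon whose omission shifts the frame. It was excluded at 1.23%, 1.38%, 1.51%, 1.48% and 1.74% in Q150 WT and 3.13%, 3.21%, 3.94% and 2.83% in Q150 HOMO mice. In Q175 it was 1.65%, 1.77%, 2.07%, 1.61% and 1.67% in WT and 1.41%, 1.91% and 1.89% in HOMO mice. The difference was 1.20 ± 0.26 (limma adjusted p of 0.0081), lost without 1 of the 17 mice. The 171-base exon of Hnrpdl, now named Hnrnpdl, which encodes an AU-rich element-binding hnRNP, showed the highest Q150 change of the 59. It was excluded at 1.06%, 1.14%, 1.04%, 0.855% and 1.11% in Q150 WT, 6.01%, 7.55%, 5.40% and 4.03% in Q150 HOMO, 1.47%, 1.56%, 1.75%, 1.38% and 1.22% in Q175 WT and 4.91%, 5.02% and 4.66% in Q175 HOMO mice. The rise was 2.50 ± 0.14 in Q150 and 1.78 ± 0.15 in Q175. The homozygotes of the lines did not pass a test against each other (0.22, limma adjusted p of 0.422). The WT mice of the sets did (-0.50, limma adjusted p of 0.0275). The call on the difference (0.72 ± 0.20, limma adjusted p of 0.0399) was lost without any 1 of 13 mice and with the series term (0.58). Its loss with all WT mice as a single group (0.22) repeats the comparison of homozygotes and is no separate result. A further Hnrpdl event, a 105-base exon of a non-coding part, had a difference of -0.44 ± 0.16 that did not pass (limma adjusted p of 0.128) in all mice but did without Q175 WT replicate 7 (-0.53), with the series term (-0.58) and with all WT mice as a single group (-0.60).

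Rbm5, a splicing regulator of cell-death genes, had 2 shared events. Its 74-base exon was excluded at 4.04% ± 0.302 (SD, n = 5) in Q150 WT, 7.31% ± 0.628 (SD, n = 4) in Q150 HOMO, 5.52% ± 1.44 (SD, n = 5) in Q175 WT and 5.41% ± 0.528 (SD, n = 3) in Q175 HOMO mice, a difference of 0.91 ± 0.23 (limma adjusted p of 0.0274). The call was kept without 13 of the 17 mice in turn and lost with the series term (0.64) and with all WT mice as a single group (0.47). Its 61-base exon had a difference of 1.21 ± 0.38 that did not pass (limma adjusted p of 0.068) in all mice but did without Q150 WT replicate 2 or 5, and exclusion was 2.86% ± 1.09 (SD, n = 5) and 8.94% ± 1.25 (SD, n = 4) in Q150 against 4.06% ± 0.693 (SD, n = 5) and 5.89% ± 0.808 (SD, n = 3) in Q175. The other 4 events of the list were those of Hnrnpa1 (0.46), Hnrnph2 (0.74), Hnrph3 (0.67) and Cstf2 (0.73), which encode hnRNPs and a subunit of the 3′-end cleavage machinery. With the series term, Cstf2 alone of these kept its call. Their Q175 changes lay from -0.10 in Hnrnph2 to 0.21 in Hnrnpa1 and did not pass.

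The widest differences were those of Ptk2b and Sp100. Ptk2b, a calcium-activated tyrosine kinase, had 129.6 counts per mouse on average, the fewest of the 59. Exclusion was 10.5%, 8.26%, 13.9%, 18.9% and 22.4% in Q150 WT and 24.2%, 18.6%, 29.3% and 25.7% in Q150 HOMO mice. In Q175 it was 23.5%, 30.1%, 31.1%, 24.5% and 20% in WT and 12.1%, 14.6% and 14.8% in HOMO mice. The HOMO mice overlapped with WT in Q150 and lay below it in Q175, where the change of -1.09 ± 0.36 did not pass. The difference was 2.04 ± 0.49 (limma adjusted p of 0.0175), and the WT mice of the sets had a difference of -1.06 that did not pass (0.057). The Ptk2b call was lost without Q175 HOMO replicate 1 and with the high-series Q175 WT mice alone, and with all 10 WT mice as a single group the value was 0.98 and did not pass. Sp100, a component of nuclear bodies, had the widest difference in the other direction, -1.93 ± 0.55 (limma adjusted p of 0.0402), with exclusion of 64.9% to 91.4% (median 85.3%) in Q150 WT, 40.2% to 69.2% in Q150 HOMO, 59.4% to 79.4% in Q175 WT and 56.6% to 83.7% in Q175 HOMO mice, which overlapped in both lines. Its call was lost without any 1 of 10 mice, and with all WT mice as a single group, at -0.94.

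Other events that passed in Q150 alone and are named for their size were those of Kdm6a, a histone demethylase (difference 1.57), Ccdc50 (1.39), Mef2c, a transcription factor of neurons (1.32), and Abat, the enzyme that breaks down GABA (1.26). Their calls were kept without 15, 6, 14 and 9 of the 17 mice in turn, and with mice centred that of Kdm6a alone was kept. The Ccdc50 call was also lost with the series term (1.13). With all WT mice as a single group Kdm6a (0.87), Mef2c (0.39) and Abat (0.68) lost theirs. Kdm6a exclusion was 4.88% ± 1.74 (SD, n = 5) and 11.9% ± 2.07 (SD, n = 4) in Q150 and 7.64% ± 2.1 (SD, n = 5) and 6.78% ± 0.585 (SD, n = 3) in Q175. The 24-base exon of Mef2c was excluded at 3.61% ± 0.663 (SD, n = 5) and 5.98% ± 1.18 (SD, n = 4) in Q150 and at 6.80% ± 1.95 (SD, n = 5) and 4.59% ± 0.835 (SD, n = 3) in Q175, where the WT mice of the sets differed (-0.92, limma adjusted p of 0.0125). The homozygotes of the lines, the same comparison as with a single WT group, did not pass a test against each other at Mef2c (0.39, limma adjusted p of 0.349). Chka, a choline kinase, was the event that passed in Q175 alone. Its exclusion was 10.3%, 10.8%, 10.4%, 8.01% and 9.27% in Q150 WT, 7.88%, 9.87%, 6.04% and 6.98% in Q150 HOMO, 6.98%, 6.42%, 6.45%, 7.00% and 8.43% in Q175 WT and 10.3%, 9.96% and 14.1% in Q175 HOMO mice. The Q175 HOMO mice were all above the range of their WT mice and the Q150 groups overlapped, a difference of -1.15 ± 0.29 (limma adjusted p of 0.0274). The Chka call was lost without Q150 HOMO replicate 3, Q175 HOMO replicate 1 or Q175 HOMO replicate 3, with the series term (-0.97), with all WT mice as a single group (-0.64) and with the high-series Q175 WT mice alone (-1.01).

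Cbs and Ank2 passed in both lines and had the higher change in Q150. The call on the difference was kept without 11 of the 17 mice in turn for Cbs and 8 for Ank2, and neither kept it with mice centred or without the variance trend. The 42-base exon of Cbs, an enzyme of cysteine synthesis, went from 42.5% ± 1.32 (SD, n = 5) to 67.8% ± 2.39 (SD, n = 4) in Q150 and from 39.3% ± 3.49 (SD, n = 5) to 51.3% ± 5.32 (SD, n = 3) in Q175, a difference of 0.81 ± 0.22 (limma adjusted p of 0.0358). Ank2, which encodes the membrane anchor ankyrin-B, went from 26.2% ± 1.85 (SD, n = 5) to 39.4% ± 0.197 (SD, n = 4) and from 24.8% ± 1.7 (SD, n = 5) to 29.8% ± 1.73 (SD, n = 3), a difference of 0.51 ± 0.14 (limma adjusted p of 0.037). Tbc1d4, a regulator of Rab GTPases, Spire1, an actin nucleator, and Gria2, an AMPA receptor subunit, passed in neither line alone. Their changes had opposite signs, 0.48 in Q150 and -0.80 in Q175 for Tbc1d4, 0.24 and -0.45 for Spire1 and -0.24 and 0.44 for Gria2, and their calls were lost without any 1 of 11, 12 and 12 mice. At Tbc1d4 the WT mice of the sets differed (-0.90, limma adjusted p of 0.0275), which they did not at Spire1 or Gria2. The Tbc1d4 homozygotes of the lines did not pass a test against each other (0.38, limma adjusted p of 0.449). With all WT mice as a single group the values were 0.38 for Tbc1d4 and 0.35 for Spire1, neither past the threshold. Both of these events also lost their call with mice centred and without the variance trend. The Gria2 call was lost with the series term (-0.56), without the variance trend and with the 17 mice alone.

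Transcription and chromatin genes had 7 of 108 events past the threshold (6.48%), 4 higher in Q150 (Smarca2, Kdm6a, Mef2c and Tcf20) and 3 lower (Ncor1, Brd2 and Sp100). The count was 5 of 107 for cytoskeleton and motor genes (4.67%; 4 higher, with Sorbs2, Dync1i2 and Ank2 among them, and Dst lower), 3 of 70 for endocytosis and vesicle traffic (4.29%), 4 of 97 for kinases and phosphatases (4.12%), and 2 of 51 for channels, receptors and transporters (3.92%). Small GTPases and their regulators had 2 of 58 (3.45%), ubiquitin, chaperone and autophagy genes 2 of 62 (3.23%), adhesion and surface receptor genes 2 of 66 (3.03%), and genes in no list 26 of 1046 (2.49%). Median differences of the 9 lists ran from 0.07 in channels, receptors and transporters to 0.22 in cytoskeleton and motor genes, against 0.12 over all events. The kinase events were those of Ptk2b, Gsk3b, Synj1 and Mark4, all higher in Q150. The 39-base neuronal exon of Gsk3b, a kinase that acts on tau, was excluded at 36.9%, 38.2%, 37.6%, 37.3% and 38.0% in Q150 WT and 45.6%, 46.1%, 41.4% and 42.6% in Q150 HOMO mice, and at 39.9%, 40.0%, 42.0%, 39.3% and 37.9% in Q175 WT and 38.3%, 40.0% and 37.8% in Q175 HOMO mice. Its difference was 0.45 ± 0.11 (limma adjusted p of 0.0245), a call lost with mice centred, without the variance trend and with the series term (0.38).

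App, the amyloid precursor protein gene, fell in Q150 where its relative Aplp2 rose. Its 168-base exon encodes the Kunitz protease inhibitor domain that most neuronal App RNA lacks. Exclusion was 78.9%, 76.9%, 79.3%, 77.2% and 69.4% in Q150 WT and 72.1%, 67.7%, 64.7% and 68.2% in Q150 HOMO mice. In Q175 it was 71.4%, 69.6%, 68.6%, 69.2% and 71.7% in WT and 74.2%, 71.8% and 73.7% in HOMO mice. Q150 WT replicate 5 lay within the Q150 HOMO range, and the Q175 HOMO mice lay above their WT mice. The change was -0.60 ± 0.14 in Q150 and 0.22 ± 0.15, which did not pass, in Q175. The difference was -0.82 ± 0.21 (limma adjusted p of 0.0253), lost without any 1 of 3 mice, without the variance trend and with robust moderation. The WT mice of the sets differed (0.47, limma adjusted p of 0.0443), and with all of them as a single group the App value was -0.35 and did not pass.

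**Figure D5:**
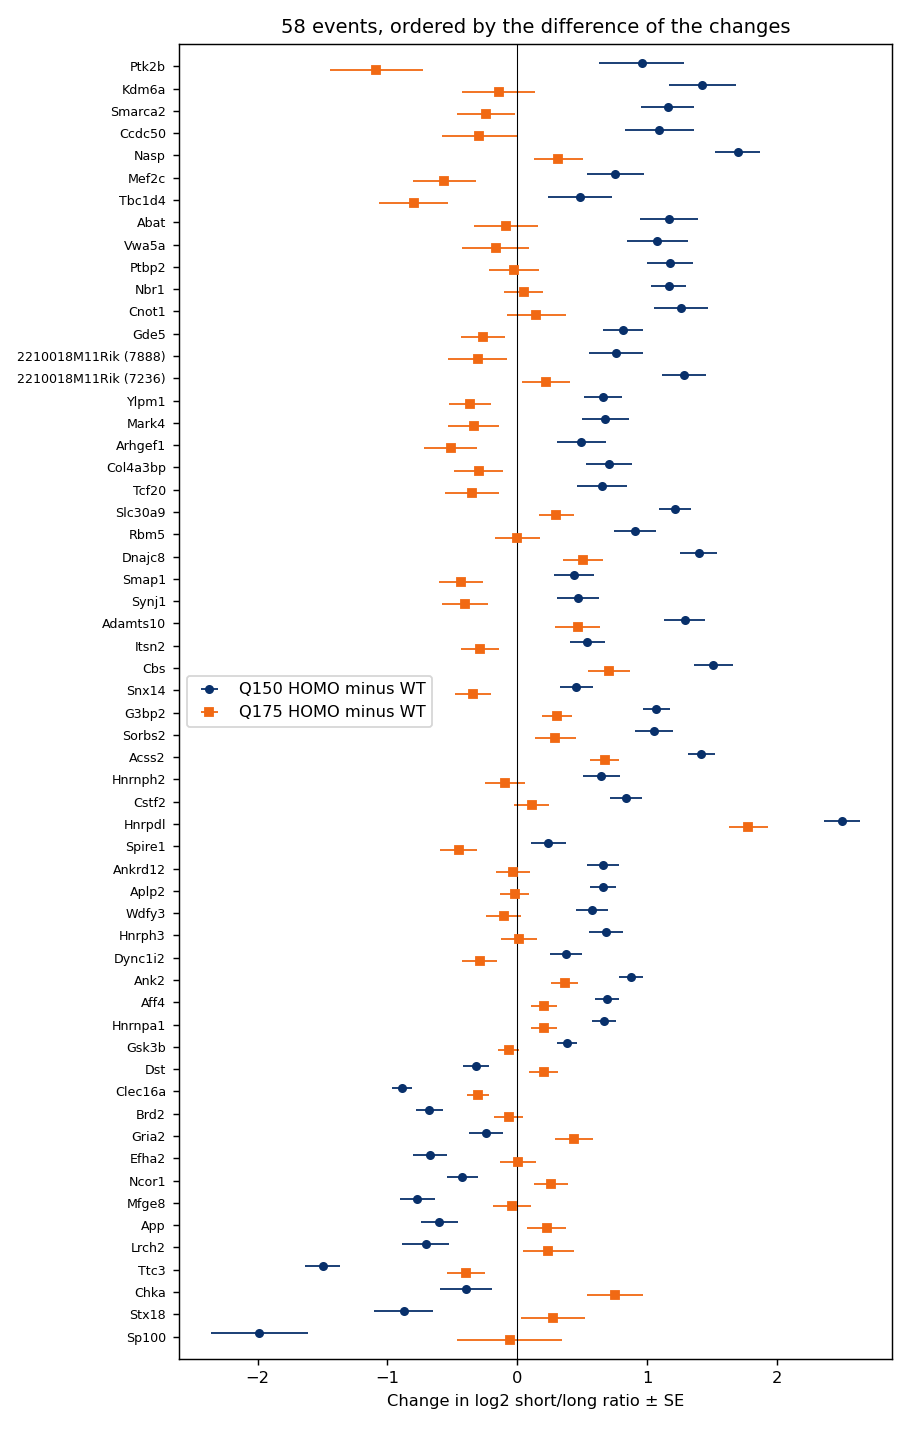
Change in the log2 short-to-long ratio ± SE of 58 of the 59 events past the threshold in Q150 (circles) and Q175 (squares) homozygotes against their own WT mice, ordered by the difference from Ptk2b (2.04) to Sp100 (-1.93). Numbers in brackets are event numbers of a gene with a pair of events.

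Mtap7d2, Mag and Mlx, whose events the study tested by RT-PCR, did not pass on the difference. Mtap7d2 (now Map7d2), a microtubule-binding protein gene, changed by 0.66 in Q150 and 0.58 in Q175 on the log2 scale, a difference of 0.07 with a 95% interval from -0.38 to 0.53, and its sign turned when mice were centred. Mlx, a transcription factor of glucose response, changed by 1.32 in Q150 and had a Q175 change of 0.84 that did not pass (limma adjusted p of 0.0557), a difference of 0.49 with an interval from -0.22 to 1.20. Mag, the myelin-associated glycoprotein, fell by 0.42 in Q150 and 0.93 in Q175, a difference of 0.51 (0.09 to 0.93; limma adjusted p of 0.169). The intervals are not adjusted for the number of events. The 3 events passing in both lines with the smallest differences were those of Prpf3 (0.74 in both), Sytl2 (0.47 in Q150 and 0.46 in Q175) and D230025D16Rik (1.02 and 1.03), with differences from -0.01 to 0.00 and 95% intervals of -0.51 to 0.51, -0.37 to 0.37 and -0.74 to 0.72, so differences of moderate size were not detectable there.

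A difference of the changes can come from the mutant mice, the WT mice or both. Of the 59 events, 38 differed between Q150 and Q175 HOMO mice (176 of all 1731) and 9 between the WT mice of the sets (41 of all 1731, 2.37%), both by limma adjusted p under 0.05. The difference between HOMO mice was the larger at 47 of the 59 and that between WT mice at 12, and they had opposite signs at 48. These are the parts of the difference that chose the events and are given as a description. The short junction differed more than the long at 46 of the 59 (54.2% of all events). At the 46 events higher in Q150, the median difference of the changes was 0.73 for short junctions and -0.21 for long ones on the log2 CPM scale, and at the 13 lower events it was -0.38 and 0.48. The 59 events were counted more deeply than the rest (median mean count of 2632 against 738) and were less often excluded in WT mice (median exclusion of 20.3% against 41.3%).

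Exons were placed on GRCm38 for 48 of the 59 events and for 1361 of all 1731. Median exon length was 77 bases in the former and 90 in the latter, and 72.9% against 66.3% had a length that is a multiple of 3. The exon was annotated as coding in 85.4% against 76.9%. The letters TGTGT, part of the binding motif of TDP-43, were found in the exon or 200 bases of intron on either side, on the strand of the gene, in 72.9% of the exons against 67.3%, and TGACT, a form of the m6A consensus, in 58.3% against 47.4%. Shares this close to the background are given as a description.

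HET mice gave no event past the threshold for the same difference (0 of 1731, 0%; limma, with 141 at an unadjusted p under 0.05, and 0 and 139 by a quasi-binomial model). They share their WT mice with the HOMO comparison. At the 46 events higher in Q150 the median difference was 0.43 in HET against 0.90 in HOMO mice, and at the 13 lower events -0.36 against -0.73. Nbr1 had a difference of 0.23 in HET and 1.12 in HOMO mice, Ttc3 of -0.59 and -1.10, Smarca2 of 0.62 and 1.40, Ptbp2 of 0.75 and 1.20, and Clec16a of -0.36 and -0.59. Hnrpdl was the 1 event of the 59 with the larger difference in HET mice, 0.86 (limma adjusted p of 0.116) against 0.72.

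The nearest event inside the threshold was that of Hnrnpa1 (difference 0.46, limma adjusted p of 0.0492) and the nearest outside that of Rcc1 (-0.85, limma adjusted p of 0.0547). The labels do not say that mice of a group came from separate litters, and their replicate numbers do not pair them across groups.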

How the data were processed

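RASL-seq libraries of the cortex, 1 per mouse, were compared. Per the file headers, the authors deposited whole read counts of the short and the long junction of each event, which were used as deposited after commas were removed. The aligner and filters were not given in the sources used here. The submitters' processing notes name mm10, but 234 of 1687 events lay inside their gene there, so file positions were not used. Cassette exons were matched by gene and interval length (1361 of 1668 with 1 match).

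Exclusion and the log2 ratio (pseudocount 0.5) of short to long counts were computed. The difference of the changes was fitted with limma 3.58.1 in R 4.3.3 on 6 group means of 25 knock-in mice, with a variance trend on counts and Benjamini-Hochberg adjustment over 1731 events (19 residual degrees of freedom, threshold 0.05). A minimum mean count of 10 removed 0 events. Counts stand for reads, not molecules. The limma step was tested on simulated data. p-values measure the spread between these mice.

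The labels conflict on the line. Titles place all 10 WT mice in Q150, and the genotype field opens with Q175 for mutants of both lines. Mutants were assigned by their glutamine numbers and WT mice by file set. The labels' numbers of HOMO mice, which were followed, match a supplementary legend of the study but not its methods. Named events were, by size of the difference, up to 8 passing in Q150 alone, 8 in Q175 alone, 8 in both and 4 in neither, with Mtap7d2, Mag, Mlx, Hnrpdl and Rbm5 and the 3 most alike in both lines. Members and gene lists were chosen with earlier results of these data known. Alternatives changed the trend, centring, mice, WT grouping, series term, pseudocount, count minimum and model. Figures were drawn with matplotlib 3.10.9. An item that was measured is not reported here.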

Additional observations from a re-analysis of the deposited data

Results flagged for a closer look

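Q175 WT replicate 8 had a mean exclusion of 45.76%, apart from the other 4 WT mice of its set by 0.9 of the group's range. It was the 1 outlying mouse in 81 groups of samples examined, where chance alone marks about 1 in 20 groups. The lines differed in the change of mean exclusion by 1.171 points (exact permutation p of 0.00261, in 17 mice) and at 59 events by limma.

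The events named by rule that passed on the difference of the changes, in log2 units by limma, were those of Ptk2b (2.043), Kdm6a (1.568), Smarca2 (1.398), Ccdc50 (1.385), Nasp (1.382), Mef2c (1.317) and Abat (1.256), which were higher in Q150, and Sp100 (-1.927), which was lower. Chka had a difference of -1.146. The events past the threshold in both lines were those of Cbs (0.8057), Acss2 (0.7443), Hnrpdl (0.7232), Ank2 (0.5109) and Clec16a (-0.5854). Tbc1d4 (1.277), Spire1 (0.6915) and Gria2 (-0.6765) passed in neither line, and the 74-base exon of Rbm5 had a difference of 0.9059. Each is a test of the difference itself.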

How the results depend on the processing

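The count of 59 events fell to 21 without the variance trend, 33 with mice centred and 4 with the Q175 WT mice of the high series as sole controls of that line (chosen after seeing the data). With all 10 WT mice as a single group it was 147, and 35 of the 59 kept their call. There the WT mice cancel, so the 147 are differences between Q150 and Q175 HOMO mice, not differences of the changes. The count ran from 12 to 82 when 1 mouse was left out, and from 40 to 67 under the other alternatives. The difference in mean exclusion kept its direction and stayed past 0.05 under each alternative run, from 0.996 to 1.32 points when 1 mouse was left out. All 59 differences kept their sign in the 9 refits that left out no single mouse, but some of these could not have turned it. Without the variance trend, with robust moderation or without the HET mice, the differences equal the main ones and only their errors change. Centring lowered every difference by the same amount, and the smallest difference higher in Q150, that of Gsk3b, went from 0.448 to 0.303. The sign in those refits therefore says nothing about stability. The events most alike in both lines, and Mtap7d2, changed sign easily, since their differences lay near 0. With mice centred the differences were -0.14 for Sytl2, -0.14 for Prpf3 and -0.0706 for Mtap7d2. With all WT mice as a single group they were 0.51 for D230025D16Rik and -0.14 for Prpf3, and with the series term -0.00782 for Sytl2, -0.0195 for Prpf3 and -0.00215 for Mtap7d2. D230025D16Rik was at 0.0198 with a pseudocount of 5 and at 0.0208 in the quasi-binomial model, where Prpf3 was at -0.0506. With those WT mice of the high series Prpf3 was at -0.0282 and Mtap7d2 at -0.00429. Without 1 mouse the differences ran from -0.0995 to 0.0842 in Sytl2, -0.12 to 0.14 in Prpf3, -0.19 to 0.19 in D230025D16Rik and -0.0206 to 0.19 in Mtap7d2. The cause was not tested. No paired analysis was possible because the labels number mice individually, and the replicate numbers used here follow accession order and pair no samples.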
